A study of Mus musculus with 4 samples.

Results

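AP-1 and early response factors were read across the cell types of mouse back skin: Fos, Fosb, Fosl1, Fosl2, Jun, Junb, Jund, Atf3, Egr1 and Batf, which are 10 of the 31053 genes in the deposited count matrices. They were chosen by gene family, with earlier results of these data known. Each was followed in every cell type defined by marker genes, in all 4 single-cell RNA libraries of the series, and was set beside heat shock genes, because both the tumor promoter TPA and the handling of cells are known to raise AP-1 genes.

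AP-1 is a pair of leucine zipper proteins bound to DNA: a Jun protein joins a Fos protein, an ATF protein or a BATF protein, and the pair chosen sets which sites are bound. Fos, Fosb, Jun, Junb, Atf3 and Egr1 are immediate early genes, which are transcribed within minutes of a stimulus from factors already present in the cell, whereas Fosl1 and Fosl2 follow later and last longer. In skin the phorbol ester TPA acts on protein kinase C and through it on AP-1, and AP-1 in keratinocytes is known to be needed for chemically induced papillomas. Egr1 is a zinc finger factor outside AP-1 that is induced by the same kinase cascades, and Batf is a lymphoid and myeloid partner of Jun proteins known for its part in T helper and dendritic cell differentiation.

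All mice were on the BALB/c background, and the sources used here give neither age nor sex. The WT treated and Cd226-/- treated libraries came from mice given 25 µg of the mutagen DMBA once and then 5 µg of TPA weekly. Both are recorded at 3 weeks after treatment. The time between the last TPA dose and the taking of the skin is not known here. Cd226-/- mice lack the activating receptor CD226 (DNAM-1) in every cell, and both treated libraries mixed sorted CD45+ and CD45- cells in equal parts. The naive CD45- and naive CD45+ libraries came from untreated skin, and each is labelled as an equal pool of WT and Cd226-/- cells, so naive values carry no genotype. Each library was a pool of 3 mice, and cells were freed with collagenase type IV before sorting. There was 1 library per group: no value below has a replicate check, no test between groups was possible, and the exact 95% intervals printed cover counting error alone.

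RefSeq promoters of GRCm38.p6 were found for 8 of the 10 genes, all but Fosl1 and Egr1. The 4 windows shown hold a cyclic AMP response or AP-1-like match, whose function was not tested. They are the 250 bases before the start site, printed 5′ to 3′ on the gene's strand, with the match in capitals: Fos at chr12:85473640-85473889 (+), Jun at chr4:95052223-95052472 (−), Atf3 at chr1:191183334-191183583 (−) and Batf at chr12:85686470-85686719 (+).
Fos: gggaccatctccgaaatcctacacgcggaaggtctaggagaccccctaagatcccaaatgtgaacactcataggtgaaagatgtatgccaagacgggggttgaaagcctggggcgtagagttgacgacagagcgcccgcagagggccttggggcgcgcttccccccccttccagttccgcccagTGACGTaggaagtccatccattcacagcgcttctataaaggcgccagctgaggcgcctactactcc
Jun: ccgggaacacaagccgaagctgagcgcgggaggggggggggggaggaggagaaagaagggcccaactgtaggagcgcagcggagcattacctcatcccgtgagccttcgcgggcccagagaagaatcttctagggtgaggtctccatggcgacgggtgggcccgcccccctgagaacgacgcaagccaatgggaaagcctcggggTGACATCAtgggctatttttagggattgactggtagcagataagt
Atf3: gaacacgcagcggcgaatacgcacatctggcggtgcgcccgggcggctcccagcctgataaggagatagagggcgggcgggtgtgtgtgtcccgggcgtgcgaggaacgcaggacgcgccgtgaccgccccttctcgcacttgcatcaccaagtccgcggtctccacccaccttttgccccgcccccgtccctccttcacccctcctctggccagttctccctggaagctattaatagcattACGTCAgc
Batf: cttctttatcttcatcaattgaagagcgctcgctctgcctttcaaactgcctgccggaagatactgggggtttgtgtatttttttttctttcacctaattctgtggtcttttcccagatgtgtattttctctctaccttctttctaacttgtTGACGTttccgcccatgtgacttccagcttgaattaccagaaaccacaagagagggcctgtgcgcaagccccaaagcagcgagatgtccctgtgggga
Both strands were searched for an open form of the cyclic AMP element (TGACNTCA), an open form of the AP-1 element (TGANTCA), the cyclic AMP core (TGACGT), the CArG box, the EGR site (GCGTGGGCG) and the TATA box (TATAAA), after the full palindromes of the cyclic AMP and AP-1 elements had given no match. In Fos the match to TGACGT lies 66 to 61 bases before the start site, with TATAAA 33 to 28 bases before it. Jun holds TGACNTCA 45 to 38 bases before its start site. Atf3 holds TGACGT, on the opposite strand, 8 to 3 bases before the start site, and Batf holds it 98 to 93 bases before. Of 32851 RefSeq mouse promoters of the same length, 6.47% hold TGACGT, 7.49% TGACNTCA, 6.75% TGANTCA, 1.47% the CArG box, 0.536% the EGR site and 12.4% the TATA box. A match to the cyclic AMP core is also one to the open form where CA follows it. The windows of Fosb, Fosl2, Junb and Jund held none of the 6. The start sites are those of 1 RefSeq entry per gene, and other start sites were not searched. The Jund window, chr8:70697489-70697738, ends well before its GENCODE gene model given below, which starts at 70698949. Those of Fosl2 (chr5:32136222-32136471) and Atf3 lie inside their gene models. For these genes a match, or its absence, holds for that window alone.

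In the GENCODE annotation of GRCm38 that matches the gene identifiers of the files, all 10 are protein-coding. Fos lies at chr12:85473890-85477273 and Batf at chr12:85686669-85709087, both on the plus strand of 1 chromosome. Fosb lies at chr7:19302696-19310051, Fosl1 at chr19:5447547-5455946 and Fosl2 at chr5:32135801-32157842. Jun lies at chr4:95049034-95052222, Junb at chr8:84974484-84978718, Jund at chr8:70698949-70700616 and Atf3 at chr1:191170296-191218039.

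After filtering, 7022 WT treated, 6521 Cd226-/- treated, 10597 naive CD45- and 3494 naive CD45+ cells were kept. Their median depth was 8340.0, 9073, 6552 and 8937 UMIs (unique transcript counts). Barcodes with more than 10% mitochondrial UMIs, which were left out, numbered 1128 of 8527 in the WT and 1110 of 7991 in the Cd226-/- library. In the naive CD45- library they were 506 of 11875 and in the naive CD45+ library 2307 of 5913. The naive library used for immune classes thus had the largest share of such barcodes. Immune cells were 27.3% of the WT and 49.98% of the Cd226-/- library although both had been mixed in equal parts, 95.1% of the naive CD45+ and 1.04% of the naive CD45- library. Between 4.26% and 10.5% of the cells of a library stayed unnamed. Any pair of libraries shared 9 to 21 cell barcodes. Cd226 itself, read in lymphocyte-like cells, gave 81 UMIs (47.2 of 1000000) in the WT, 41 (18.1) in the Cd226-/- and 7 (4.36) in the naive CD45+ library. Transcripts of the gene were therefore still counted in the library labelled Cd226-/-, and since the sources used here do not say which part of the gene is deleted, 3′ counts cannot check that label.

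Levels are UMIs of a gene per 1000000 UMIs of all cells of a class in a library, written CPM. Naive values are those of the naive CD45+ library for immune classes and of the naive CD45- library for the others, unless named. A level was taken for classes with at least 20 cells in a library and a ratio for classes with at least 50 cells in both. A gene counts as measured in a comparison where both libraries together hold 50 or more UMIs of it, and as higher or lower when the ratio passes 1.5-fold. The WT over naive and the Cd226-/- over naive ratios share the naive library, so their values are given side by side and not as 2 findings. In single-cell sums, RNA set free by other cells adds to every class; it was gauged by the markers of fibroblast-like and neutrophil-like cells and is given where it bears on a result.

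**Figure D1:**
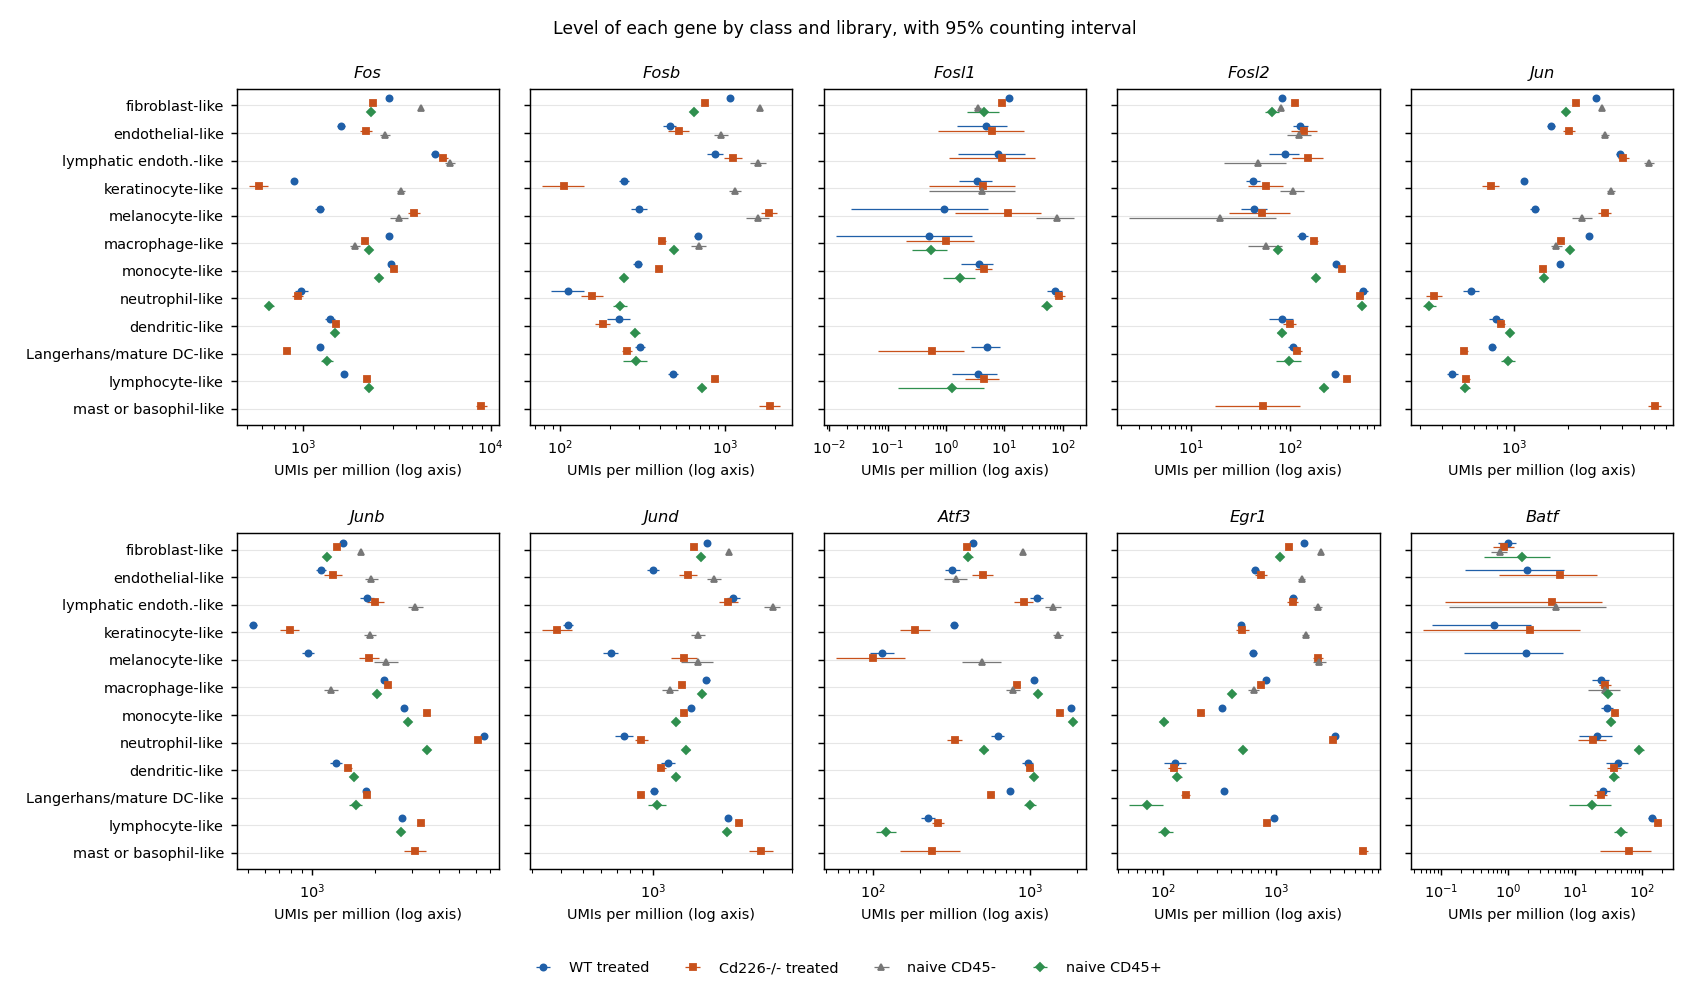
CPM (x axis, log scale) of each of the 10 genes by class (y axis) in the 4 libraries, with the 95% counting interval as a bar. Egr1 in neutrophil-like cells stands at 3322 and 3177 in the treated libraries against 511 in the naive one, while keratinocyte-like cells of the naive library stand right of those of WT skin for Fos, Jun and Egr1.

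Fos, the partner with the strongest known induction, was present in every class. In WT treated skin its level ran from 5022 CPM in lymphatic endothelial-like cells through 2945 in monocyte-like, 2881 in fibroblast-like and 2863 in macrophage-like cells. These last 3 neighbours overlap within counting error. Below them stood lymphocyte-like cells at 1642, endothelial-like at 1594, dendritic-like at 1389, Langerhans or mature dendritic-like at 1225, melanocyte-like at 1223, neutrophil-like at 976 and keratinocyte-like cells at 896. The lymphatic endothelial-like cells led in the naive CD45- library too, at 6063, ahead of fibroblast-like cells at 4257 and keratinocyte-like cells at 3321. In the Cd226-/- library mast or basophil-like cells, a class of 40 cells there, held 8924 CPM, ahead of lymphatic endothelial-like cells at 5587. Neutrophil-like cells were the lowest class of the naive CD45+ library, at 660.

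Fosb, a close relative of Fos, followed a similar order outside the immune classes. It was highest in WT treated fibroblast-like cells at 1071 CPM, with lymphatic endothelial-like cells at 867 and macrophage-like cells at 681, and lowest in neutrophil-like cells at 111. In naive CD45- skin fibroblast-like, lymphatic endothelial-like and melanocyte-like cells held 1633, 1585 and 1577, which do not differ beyond counting error. In the naive CD45+ library lymphocyte-like cells were the highest class at 725 and neutrophil-like cells the lowest at 231.

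Fosl1 (Fra-1), the late Fos protein known for its part in epidermal and invasive programs, was sparse except in neutrophil-like cells. These held 73.2 CPM in the WT, 87.4 in the Cd226-/- and 53.7 in the naive CD45+ library. The next class was fibroblast-like cells at 12.0 in WT skin. In keratinocyte-like cells the levels were 3.42, 4.27 and 4.17 CPM in WT, Cd226-/- and naive skin, with intervals that overlap. Melanocyte-like cells of naive skin, a class of 26 cells, held 79.3, from only 8 UMIs (34.25 to 156.3).

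Fosl2 (Fra-2), the other late Fos protein, was likewise highest in neutrophil-like cells, at 544, 503 and 532 CPM in the WT, Cd226-/- and naive libraries. The 3 values lie close together. Monocyte-like and lymphocyte-like cells came next in both treated libraries, at 289 and 287 in WT and at 334 and 375 in Cd226-/- skin. Keratinocyte-like cells were at the low end of WT skin, at 42.6.

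Jun, the founding partner, had an order like that of Fos outside the immune cells: 3897 CPM in lymphatic endothelial-like, 2846 in fibroblast-like and 2602 in macrophage-like cells of WT skin. It was lowest there in lymphocyte-like cells, at 455, with neutrophil-like cells at 578. Junb, which can restrain Jun and is known to hold back myeloid growth, had another order. Neutrophil-like cells held 6566, 6123 and 3528 CPM in the WT, Cd226-/- and naive libraries and led each of the 3. Monocyte-like and lymphocyte-like cells followed in WT skin at 2741 and 2673, and keratinocyte-like cells were lowest at 525. Jund, the Jun protein with the most constant known expression, had the narrower order: in WT skin 2235 in lymphatic endothelial-like and 2113 in lymphocyte-like cells, which overlap, down to 750 in neutrophil-like and 431 in keratinocyte-like cells.

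Atf3, a stress-inducible partner that often represses, was highest in monocyte-like cells in each library with enough of them: 1838 CPM in WT, 1557 in Cd226-/- and 1877 in naive skin. Lymphatic endothelial-like, macrophage-like and dendritic-like cells of WT skin followed at 1104, 1070 and 968 with overlapping intervals. Lymphocyte-like cells were low at 224, 260 and 122. In naive CD45- skin keratinocyte-like cells were at the top at 1521, against 330 in WT skin.

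Egr1 spread widely over the classes of treated skin. Neutrophil-like cells held 3322 CPM in the WT library, followed by fibroblast-like cells at 1782, lymphatic endothelial-like at 1422, lymphocyte-like at 962 and macrophage-like cells at 826, while dendritic-like cells held 129. In naive CD45+ skin fibroblast-like cells led at 1094, and neutrophil-like cells held 511, macrophage-like cells 413 and lymphocyte-like cells 106. Mast or basophil-like cells of the Cd226-/- library held 5942.

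Batf was an immune gene in these libraries: in classes outside the immune cells its level reached at most 6.04 CPM. In WT skin lymphocyte-like cells held 143, and dendritic-like, monocyte-like, Langerhans or mature dendritic-like, macrophage-like and neutrophil-like cells between 21.3 and 43.7. In naive skin neutrophil-like cells were highest at 91.3, ahead of lymphocyte-like cells at 49.2. Fibroblast-like cells held 0.994, 0.875 and 0.756 in WT, Cd226-/- and naive CD45- skin.

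Among immune cells the difference between treated and naive skin was widest for Egr1. In neutrophil-like cells Egr1 stood at 3322, 3177 and 511 CPM in WT, Cd226-/- and naive skin: 6.50-fold higher in WT (6.0 to 7.04) and 6.21-fold higher in Cd226-/- skin (5.76 to 6.71). In lymphocyte-like cells it stood at 962, 831 and 106: 9.08-fold higher in WT (7.75 to 10.7) and 7.84-fold higher in Cd226-/- skin (6.70 to 9.23). Both treated libraries are well above the naive one in both classes. A larger share of naive CD45+ barcodes had exceeded the mitochondrial limit, and the part of this cell quality in the ratios was not tested. Monocyte-like cells held 336, 220 and 104, a 3.23-fold (2.93 to 3.57) and a 2.12-fold (1.94 to 2.32) difference, and macrophage-like cells 826, 744 and 413, a 2.00-fold (1.90 to 2.11) and a 1.80-fold (1.72 to 1.89) difference. Dendritic-like cells held 129, 127 and 135, with overlapping intervals. Langerhans or mature dendritic-like cells held 351, 160 and 72.6, the last from 35 cells.

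Egr1 was also read in cells low in heat shock genes, which respond to cell handling. The split was made within each class and library, so it does not make heat shock levels equal between libraries. The part of handling in these Egr1 values was not tested. When only the cells at or below the median heat shock share of their class and library were summed, the Egr1 ratio to naive skin was 5.16 in WT and 4.45 in Cd226-/- neutrophil-like cells and 4.24 and 3.89 in lymphocyte-like cells. These ratios were smaller than over all cells and still past 1.5-fold. In macrophage-like cells they were 1.57 and 1.48, and in monocyte-like cells 1.805 and 1.195, so that the Cd226-/- values of these 2 classes no longer passed 1.5-fold.

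The share of cells with an Egr1 UMI showed the same order with depth set equal. With each cell thinned to 1000 UMIs, Egr1 was seen in 80.8% of neutrophil-like cells of WT skin (73.7% to 86.6%), 79.0% of Cd226-/- (73.6% to 83.7%) and 24.1% of naive skin (20.5% to 28.0%). Without thinning the shares were 94.2%, 92.1% and 38.5%, at medians of 3222, 2977 and 2867 UMIs per cell. In lymphocyte-like cells the thinned shares were 34.6%, 26.9% and 4.6%, and the unthinned ones 48.5%, 44.0% and 19.5%, at medians of 3446, 3408 and 5754 UMIs. In monocyte-like cells the shares were 19.9%, 15.1% and 6.97% thinned and 48.5%, 43.0% and 31.4% unthinned. In macrophage-like cells they were 42.6%, 37.8% and 22.4% thinned and 72.7%, 69.0% and 52.0% unthinned. Dendritic-like cells, with 13.4%, 8.5% and 9.63% thinned, mark a low share for comparison. Egr1 was thus seen in fewer cells of the naive library in neutrophil-like, lymphocyte-like, monocyte-like and macrophage-like cells. In the naive lymphocyte-like cells 22.9% of the Egr1 UMIs came from 1 cell.

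Markers of fibroblast-like cells, a gauge of RNA from other cells, were low in most of these immune classes. Fibroblast-like markers in WT lymphocyte-like cells stood at 2.43% of their level in fibroblast-like cells, which at that ratio carries 43.4 of the 962 Egr1 CPM (4.51%). In WT neutrophil-like cells the marker level was 2.32% and the carried share 1.24%, and in WT macrophage-like cells 1.99% and 4.29%. In WT monocyte-like cells fibroblast-like markers carried 10.6% and neutrophil-like markers 18.0% of the Egr1 level. In WT Langerhans or mature dendritic-like cells fibroblast-like markers carried 20.1%, against 4.79% in Cd226-/- cells.

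**Figure D2:**
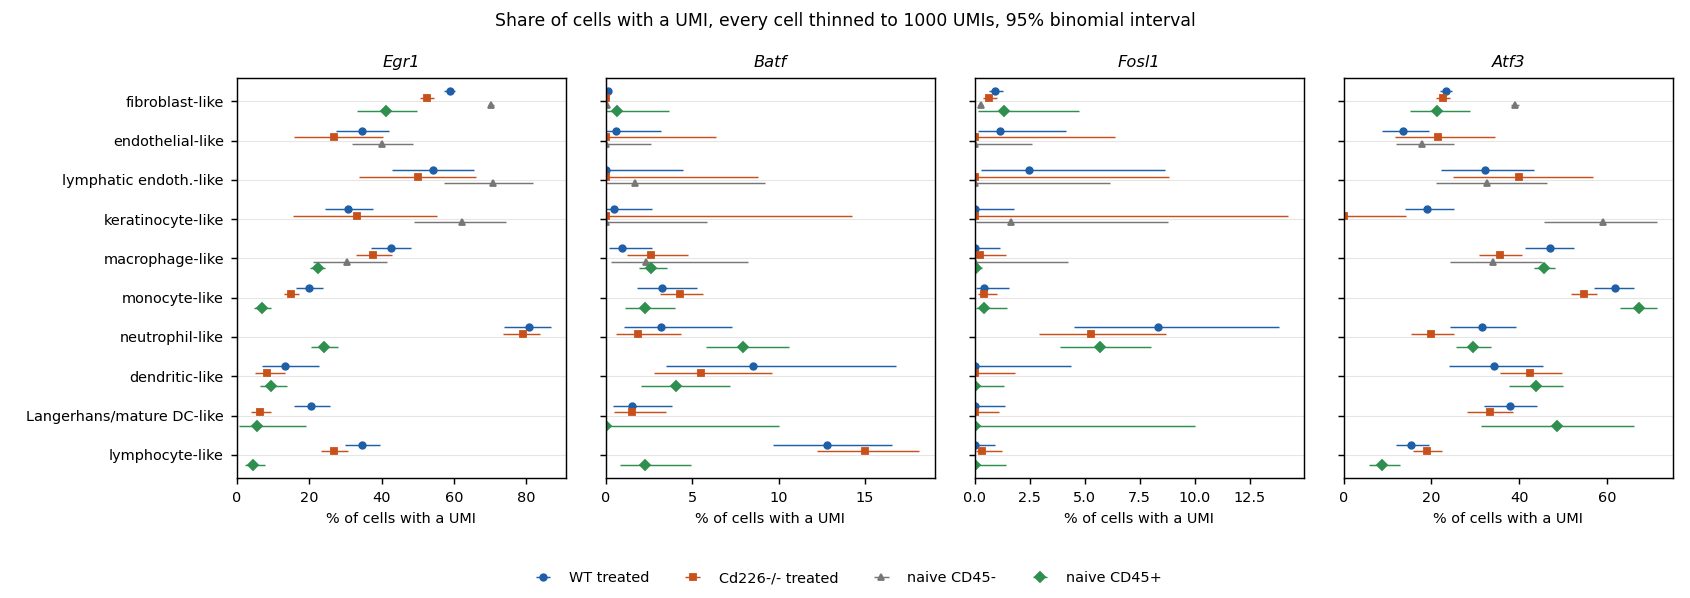
Share of cells with at least 1 UMI (x axis, percent) by class (y axis) and library, after every cell was thinned to 1000 UMIs, with exact 95% binomial intervals as bars. Egr1 was seen in 80.8% and 79.0% of neutrophil-like cells of treated skin against 24.1% of naive ones.

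Neutrophil-like cells differed in more than Egr1. Of 10 measured genes 3 were higher (all genes: 11.2%) and 3 lower (all genes: 35.3%) in WT than in naive skin, and their median log2 ratio was 0.37 against -0.33 over all 2932 genes measured. Junb stood at 6566, 6123 and 3528 CPM in WT, Cd226-/- and naive skin, 1.86-fold (1.79 to 1.94) and 1.74-fold (1.68 to 1.80) higher. Jun stood at 578, 360 and 339, 1.71-fold higher in WT (1.49 to 1.95), with the Cd226-/- value near the naive one. Batf, in contrast, stood at 21.3, 18.7 and 91.3, 4.28-fold lower in WT (2.47 to 8.01) and 4.89-fold lower in Cd226-/- skin (3.03 to 8.35). These are 14 and 19 UMIs against 153. Jund stood at 750, 893 and 1396, 1.86-fold lower in WT (1.69 to 2.06), and Fosb at 111, 156 and 231, 2.08-fold lower in WT (1.61 to 2.70). Within the Jun family, Junb and Jun were thus higher and Jund lower in WT than in naive cells of this class. Heat shock genes took 0.139%, 0.118% and 0.136% of all UMIs of neutrophil-like cells in the 3 libraries, which is about level.

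In lymphocyte-like cells, which join T, NK and innate lymphoid cells, 3 of 9 measured genes were higher (all genes: 11.1%) and 0 lower (all genes: 16.2%) in WT than in naive skin. Beside Egr1 these were Batf and Atf3. Batf stood at 143, 178 and 49.2 CPM, 2.90-fold (2.24 to 3.79) and 3.61-fold (2.83 to 4.65) higher, and its thinned share of cells was 12.8%, 15% and 2.30%, and 36.9%, 38.7% and 21.1% unthinned. Fibroblast-like cells, which should lack Batf, had thinned shares of 0.148%, 0.0362% and 0.0620%. Both treated libraries lie above the naive one for Batf, the reverse of neutrophil-like cells. Atf3 stood at 224, 260 and 122, 1.85-fold (1.55 to 2.21) and 2.14-fold (1.81 to 2.53) higher. This direction rested on the clustering: with each library clustered apart the Atf3 ratios were 0.924 and 0.99, and in cells low in heat shock genes the WT value was 1.255. The strongly induced Fos, Jun and Junb were not higher: Fos stood at 1642, 2182 and 2231, Jun at 455, 542 and 535, and Junb at 2673, 3300 and 2649. Heat shock genes were lower in the treated libraries, at 0.509% and 0.525% of UMIs against 0.840%, and whether they or the mix of lymphocytes had a part in these values was not tested. Within cluster 11, which held most lymphocyte-like cells, Egr1 stood at 1026, 968 and 112 and Batf at 150, 209 and 47.7. Fos stood there at 1187, 1081 and 1967, so both treated libraries lay below the naive one, more clearly than over the class. Fosb stood at 439, 721 and 705, Jun at 428, 495 and 533, and Junb at 2749, 3332 and 2719 in that cluster.

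Macrophage-like cells had 2 of 9 measured genes higher (all genes: 8.06%) and 0 lower (all genes: 14.4%) in WT than in naive skin, namely Egr1 and Fosl2. Fosl2 stood at 133, 174 and 75.7 CPM, 1.76-fold (1.54 to 2.02) and 2.29-fold (2.07 to 2.54) higher. The 85 macrophage-like cells of the naive CD45- library give a second naive value. They held 57.0 for Fosl2 and 639 for Egr1, both below the treated values. The 2 naive libraries themselves differed 1.55-fold in Egr1. Against 639 the Egr1 levels of both treated libraries, 826 and 744, no longer passed 1.5-fold, whereas Fosl2 still did. Fos, Jun and Junb, at 2863, 2602 and 2196 in WT and 1885, 1719 and 1235 in these naive cells, did pass 1.5-fold. Which genes were called in this class thus depended on the naive library. Fibroblast-like markers carried 26.3% of the Egr1 level of those naive CD45- cells.

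Monocyte-like cells had the same 2 genes higher of 9 measured (all genes: 7.67%) and 0 lower (all genes: 12.3%). Fosl2 stood at 289, 334 and 183 CPM, 1.58-fold (1.44 to 1.73) and 1.82-fold (1.70 to 1.96) higher. The Fosl2 value passed 1.5-fold in 5 of 9 alternative settings in WT (lowest 1.20) and in 6 of 9 in Cd226-/- skin (lowest 1.36). Treated and naive monocyte-like cells lay mostly in different clusters: 325 of the 488 naive cells were in cluster 20, rich in interferon genes, and treated ones mostly in cluster 3. Within cluster 3 Egr1 stood at 342, 218 and 99.99, so the difference was present there too, whereas Fosl2, at 293, 335 and 233, lay closer together. In dendritic-like cells 0 of 9 measured genes were higher (all genes: 7.41%) and 0 lower (all genes: 14.1%). No cluster took the dendritic-like name at resolution 2.0, with doublets kept, with stricter cells or with libraries clustered apart, so the values of this class depend on those settings.

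**Figure D3:**
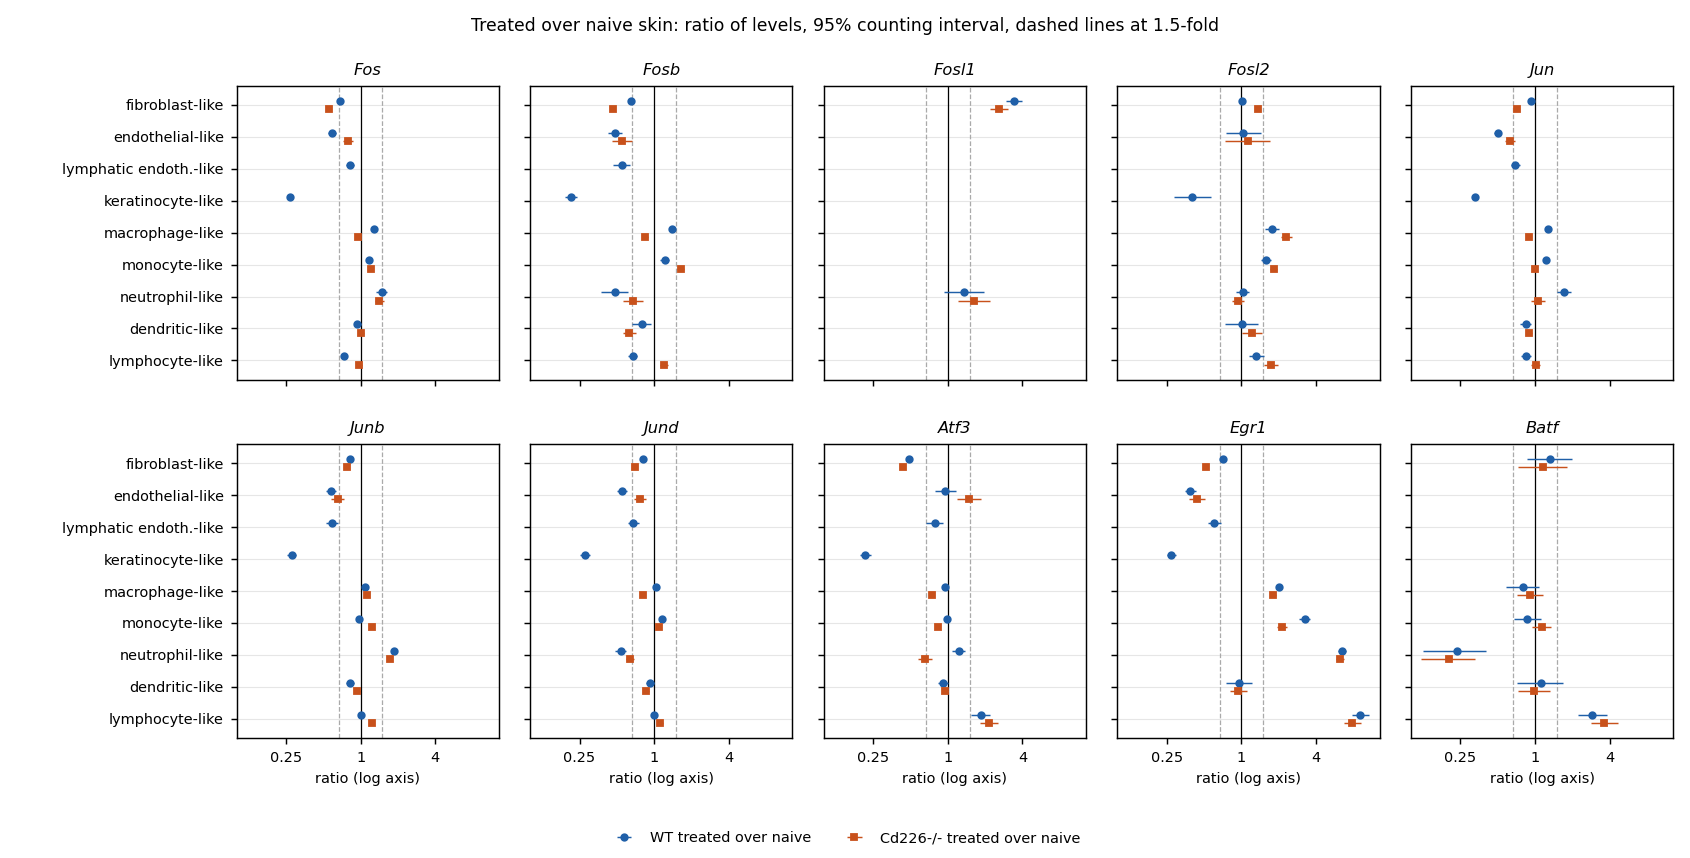
Ratio to the naive library (x axis, log scale, 1 is equal) for each gene and class (y axis) in WT treated and Cd226-/- treated skin, with exact 95% counting intervals as bars. Egr1 lies at 9.08 in lymphocyte-like cells of WT skin and below 1 in each class outside the immune cells.

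In keratinocyte-like and endothelial-like cells most measured AP-1 and early response genes were lower in WT than in naive skin. In keratinocyte-like cells 0 of 8 measured genes were higher (all genes: 34.0%) and 8 were lower (all genes: 16.5%) in the 205 WT cells than in the 61 naive cells, with a median log2 ratio of -1.87 against 0.27 over all genes. Fos stood at 896 in WT and 3321 in naive cells, 3.71-fold lower (3.48 to 3.94). Atf3 stood at 330 and 1521, 4.61-fold lower (4.19 to 5.07), and Fosb at 243 and 1146, 4.71-fold lower (4.22 to 5.26). Jun, at 1141 and 3469, was 3.04-fold lower (2.87 to 3.22), and Egr1, at 497 and 1829, was 3.68-fold lower (3.38 to 4.00). Junb stood at 525 and 1890, Jund at 431 and 1567, and Fosl2 at 42.6 and 106, which are 3.6-fold, 3.63-fold and 2.50-fold lower. All 8 naive values are thus far above the WT ones. The 24 keratinocyte-like cells of the Cd226-/- library, too few for a ratio, held 577 for Fos, 105 for Fosb, 744 for Jun, 186 for Atf3 and 506 for Egr1, on the WT side of each naive value. Neutrophil-like markers stood at 9.06% of their neutrophil-like level in those 24 cells and at that ratio carried 56.8% of their Egr1 level.

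Depth and free RNA differed between these same keratinocyte-like cells. Their median was 13957 UMIs per cell in WT and 6020 in naive skin. With each cell thinned to 1000 UMIs, Egr1 was seen in 30.7% of WT and 62.3% of naive cells, against 83.9% and 88.5% unthinned. Fibroblast-like markers stood at 23.2% of their fibroblast-like level in the naive cells and at 3.71% in the WT cells, and at that ratio carried 29.7% of the naive Fos and 31.7% of the naive Egr1 level. Other immediate early genes were lower too, 15 of 22 measured (all genes: 16.5%) and 0 higher (all genes: 34.0%), with a median log2 ratio of -1.56. Among them the phosphatase gene Dusp1 stood at 114 and 1281 CPM, 11.2-fold lower (9.86 to 12.8). The heat shock list split, with 4 of 14 higher (all genes: 34.0%) and 6 lower (all genes: 16.5%). The part of depth, free RNA and handling in the keratinocyte-like values was not tested.

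In endothelial-like cells 0 of 8 measured genes were higher (all genes: 11.6%) and 6 lower (all genes: 11.7%) in WT than in naive skin, with a median log2 ratio of -0.83 against -0.01. Egr1 stood at 658, 743 and 1696 CPM in WT, Cd226-/- and naive skin, 2.58-fold lower in WT (2.32 to 2.86) and 2.28-fold lower in Cd226-/- skin (1.97 to 2.65). In the Cd226-/- library 28.9% of those Egr1 UMIs came from 1 cell. Jun stood at 1603, 2024 and 3214, 2.00-fold (1.87 to 2.15) and 1.59-fold (1.45 to 1.74) lower, and Fos at 1594, 2175 and 2731. Both treated libraries lie below the naive one for these 3 genes. In lymphatic endothelial-like cells 0 of 7 measured genes were higher (all genes: 25.4%) and 3 lower (all genes: 13.7%), namely Fosb 1.83-fold, Junb 1.69-fold and Egr1 1.65-fold. Fibroblast-like markers stood at 19.4% of their fibroblast-like level in the naive lymphatic endothelial-like cells and at 0.922% in the WT ones, and at that ratio carried 19.97% of the naive Fosb, 10.7% of the naive Junb and 20.7% of the naive Egr1 level.

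Fibroblast-like cells were the largest class, with 4042 WT, 2764 Cd226-/- and 9684 naive CD45- cells, and here the picture rested on the choice of naive cells. Of 10 measured genes 1 was higher (all genes: 20.8%) and 2 were lower (all genes: 11.8%) in WT than in naive CD45- skin. Fosl1 stood at 12.0, 9.02 and 3.5 CPM, 3.42-fold (2.93 to 3.99) and 2.57-fold (2.18 to 3.05) higher, and its share of cells was 0.940%, 0.651% and 0.269% thinned and 7.97%, 6.66% and 1.87% unthinned. Atf3 stood at 436, 396 and 902, 2.07-fold (2.04 to 2.10) and 2.28-fold (2.24 to 2.32) lower. Fosb stood at 1071, 757 and 1633, 1.52-fold (1.51 to 1.54) and 2.16-fold (2.13 to 2.19) lower, and Fos at 2881, 2367 and 4257. The median log2 ratio of all 12769 genes measured here was 0.19, against -0.29 for the 10 genes.

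The 150 fibroblast-like cells found in the naive CD45+ library give a naive value from another library with no treatment between the 2. They passed a CD45+ sort and differed in other ways: their median was 15905.5 UMIs against 6760, and their fibroblast-like markers stood at 80370 against 170400 CPM. Neutrophil-like markers in them stood at 0.158% of the neutrophil-like level. They held 2302 for Fos, 644 for Fosb, 1943 for Jun, 406 for Atf3 and 1094 for Egr1. These 5 genes were 1.58-fold to 2.54-fold lower than in the naive CD45- library, as large as the gap between treated and naive skin. Set against these cells, WT fibroblast-like cells had 1.66 times the Fosb and 1.08 times the Atf3 level, and Cd226-/- cells 1.03 times the Fos, 1.18 times the Fosb and 1.20 times the Egr1 level, so the direction turned. Fosl1 stood at 4.53 CPM there, still below both treated libraries. Library and treatment cannot be told apart for Fos, Fosb, Atf3 and Egr1 in fibroblast-like cells.

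Clusters within the fibroblast-like class spanned more than the libraries did. In the naive CD45- library Fos ran from 1507 CPM in cluster 1 to 6468 in cluster 30, and Egr1 from 866 in cluster 1 to 4875 in cluster 12. In the WT library Fos ran from 870 in cluster 2 to 3784 in cluster 8, and Fosl1 from 0.788 in cluster 2 to 32.5 in cluster 18. Treated and naive cells lay mostly in different clusters, 2, 5, 6, 8 and 18 against 0, 1, 4, 9, 12 and 30. Clusters 5, 9 and 23 held enough WT and naive cells for a ratio: Fos was lower in WT in 3 of 3 (ratios 0.576 to 0.882), and Atf3 was lower in 2 and 1.41 times as high in cluster 5. The AP-1 members and the listed genes had been kept out of the genes used for clustering.

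**Figure D4:**
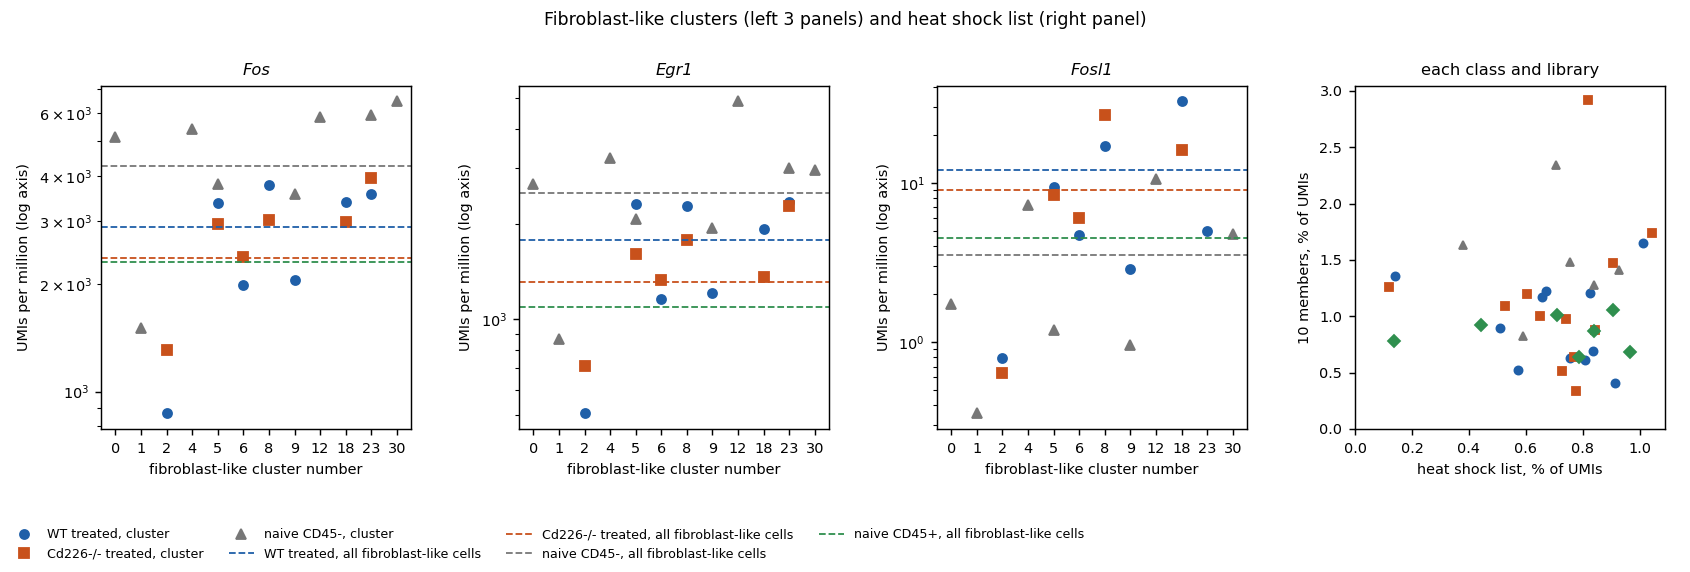
Left 3 panels: CPM (y axis, log scale) of Fos, Egr1 and Fosl1 in each fibroblast-like cluster (x axis) and library, dashed lines giving all fibroblast-like cells of a library; right panel: 10 AP-1 and early response genes (y axis) against the heat shock list (x axis), both in percent of UMIs, 1 point per class and library. Fos in naive CD45- cells runs from 1507 in cluster 1 to 6468 in cluster 30, wider than the gap between the lines.

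Over all classes, 79 pairs of gene and class were measured for WT over naive skin, of which 11 were higher and 22 lower, against 14.99% and 14.8% of all genes over the same classes. Higher pairs lay in immune classes except Fosl1 in fibroblast-like cells, and the lower ones in the other classes except the 3 in neutrophil-like cells. Because CD45+ and CD45- naive cells were separate libraries, compartment and naive library cannot be told apart in this contrast.

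The genotype comparison, which bears on what CD226 does in treated skin, gave fewer and smaller differences. Of 72 measured pairs 2 were higher and 5 lower in Cd226-/- than in WT treated skin, against 5.69% and 6.39% of all genes. In cells at or below their median heat shock share the balance was 6 higher and 4 lower of 54 pairs, against 5.67% and 4.80% of all genes, and with mean per-cell levels it was 5 and 7 of 72. In neutrophil-like cells 0 of 9 measured genes were higher (all genes: 5.83%) and 2 lower (all genes: 10.7%). Atf3 stood at 332 in Cd226-/- and 622 in WT cells, 1.87-fold lower (1.62 to 2.17), and Jun at 360 and 578, 1.61-fold lower (1.39 to 1.86). With TMM scaling the Jun value was 1.44-fold, and Fosb, at 156 and 111 CPM, had a log2 ratio of 0.65, past 1.5-fold upward, so that 1 gene was higher and 1 lower. Without the richest cell of each library Fosb was 1.61-fold higher.

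In lymphocyte-like cells 1 of 9 measured genes was higher (all genes: 6.99%) and 0 lower (all genes: 4.09%): Fosb, at 863 in Cd226-/- and 485 in WT cells, 1.78-fold higher (1.64 to 1.93). The naive level was 725, between both. In macrophage-like cells 0 of 9 were higher (all genes: 5.21%) and 1 lower (all genes: 4.04%): Fosb again, at 413 and 681, 1.65-fold lower (1.53 to 1.78). The macrophage-like Fosb value lay within 1.5-fold with libraries clustered apart and in cells low in heat shock genes (lowest 1.30).

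Langerhans or mature dendritic-like cells had 0 of 9 measured genes higher (all genes: 2.13%) and 1 lower (all genes: 8.66%). Egr1 stood at 160 in Cd226-/- and 351 in WT cells, 2.20-fold lower (1.98 to 2.45), and the share of cells was 6.34% and 20.5% thinned and 28.7% and 45.1% unthinned. Fibroblast-like markers were lower in the same cells, at 0.584% and 3.96% of their fibroblast-like level, and the matrix protease genes Mmp3 and Mmp13 were 6.18-fold (4.00 to 9.93) and 5.50-fold (3.16 to 10.1) lower. The part of RNA from other cells in the Egr1 value was not tested beyond these figures. In monocyte-like cells 0 of 9 were higher (all genes: 4.05%) and 1 lower (all genes: 5.25%), Egr1 at 220 and 336, 1.53-fold lower (1.41 to 1.65).

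In fibroblast-like cells 0 of 10 measured genes passed 1.5-fold upward (all genes: 6.97%) and 0 downward (all genes: 6.36%). Their median log2 ratio was -0.24 against 0.03 over all genes. Within the 6 fibroblast-like clusters that held enough cells of both genotypes, the Cd226-/- to WT ratio of Fos ran from 0.799 to 1.51, with 3 clusters higher and 3 lower, and only Fosl2 was higher in 6 of 6 (1.02 to 1.75). Endothelial-like cells had 1 of 8 higher (all genes: 9.95%) and 0 lower (all genes: 11.6%), Atf3 at 501 in 56 Cd226-/- and 321 in 171 WT cells, 1.56-fold higher (1.29 to 1.89). Dendritic-like cells had 0 of 9 higher (all genes: 6.31%) and 0 lower (all genes: 5.2%).

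**Figure D5:**
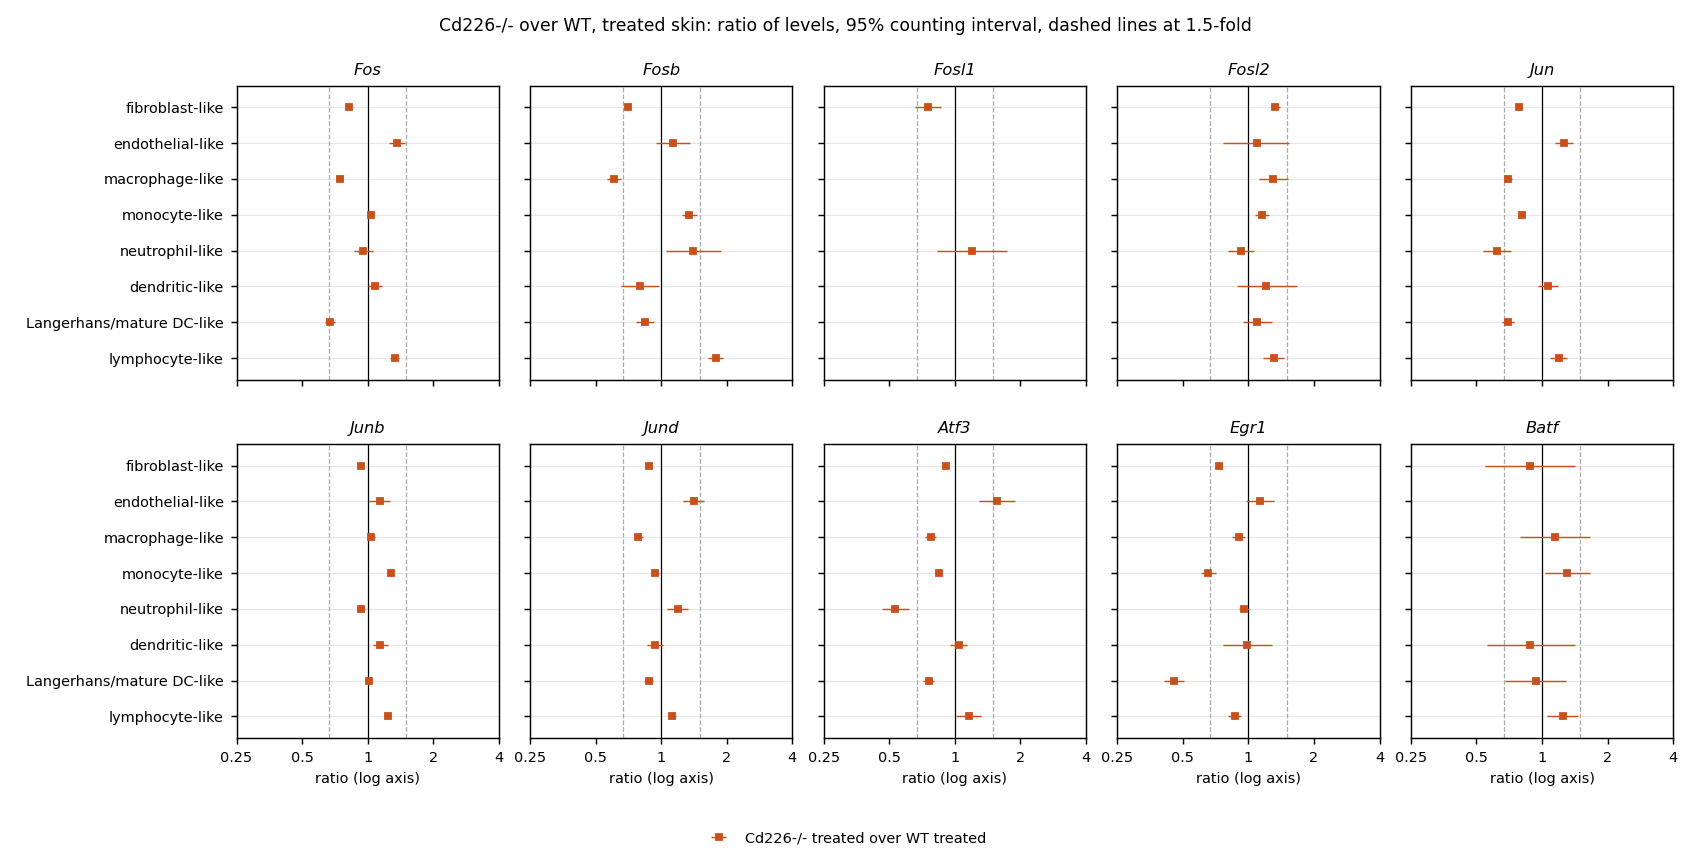
Ratio of Cd226-/- to WT treated skin (x axis, log scale, 1 is equal) for each gene and class (y axis), with exact 95% counting intervals as bars. Most values lie within 1.5-fold of equality, and Fosb lies at 1.78 in lymphocyte-like and below 1 in macrophage-like cells.

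Gene lists around the 10 genes were read in the same cells. The heat shock list, chaperone genes that respond to protein damage and to cell handling, was higher in WT than in naive CD45- fibroblast-like cells, where 10 of 14 measured genes were higher (all genes: 20.8%) and 0 lower (all genes: 11.8%) with a median log2 ratio of 0.87 against 0.19 over all genes. Hspa1b, an inducible chaperone, stood at 768 and 294 CPM there, 2.61-fold higher (2.56 to 2.65). The list took 0.670%, 0.649% and 0.380% of UMIs in WT, Cd226-/- and naive CD45- fibroblast-like cells and 0.441% in those of the naive CD45+ library. Fos, Fosb, Atf3 and Egr1 stood the other way, higher in the naive CD45- cells. In lymphocyte-like cells the list was lower, with 0 of 12 higher (all genes: 11.1%), 9 lower (all genes: 16.2%) and a median of -0.95 against -0.10 over all genes. Hsph1, at 25.6 and 124, was 4.84-fold lower there (3.48 to 6.87).

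Other immediate early genes were more often higher than lower in WT over naive skin in the 4 immune classes with more Egr1. In neutrophil-like cells 10 of 25 measured were higher (all genes: 11.2%) and 3 lower (all genes: 35.3%), with a median log2 ratio of 0.21 against -0.33 over all genes. Ier3, an early survival gene, stood at 4116 and 1452, 2.84-fold higher (2.68 to 3.00), and Klf2 at 351 and 949, 2.71-fold lower (2.36 to 3.12). In lymphocyte-like cells 10 of 25 were higher (all genes: 11.1%) and 4 lower (all genes: 16.2%). In macrophage-like cells 8 of 26 were higher (all genes: 8.06%) and 0 lower (all genes: 14.4%). In monocyte-like cells 5 of 25 were higher (all genes: 7.67%) and 0 lower (all genes: 12.3%). In fibroblast-like cells 6 of 26 were higher and 3 lower, shares near those of all genes (20.8% and 11.8%).

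Of other AP-1 and partner leucine zipper genes, 4 of 11 were higher (all genes: 20.8%) and 1 lower (all genes: 11.8%) in WT than in naive fibroblast-like cells. Batf3, a relative of Batf, stood at 2.45 and 0.102 CPM, 24.1-fold higher (11.3 to 61.3), both low levels. Macrophage-like, neutrophil-like and lymphocyte-like markers stood at 18.95, 13.3 and 10.23 CPM in these WT cells. In the naive CD45- ones they stood at 7.807, 2.035 and 9.072. The part of RNA from immune cells in the Batf3 value was not tested. Maf, a factor of T helper cells and macrophages, stood at 55.3 and 131, 2.38-fold lower (2.27 to 2.49). In monocyte-like cells 2 of 11 were higher (all genes: 7.67%) and 2 lower (all genes: 12.3%). Jdp2, a repressor partner of Jun, stood at 42.1 and 27.2, 1.54-fold higher (1.22 to 1.96), and Maf at 219 and 445, 2.03-fold lower (1.87 to 2.22). In lymphocyte-like cells 2 of 7 were higher (all genes: 11.1%) and 1 lower (all genes: 16.2%). Atf4, a factor of the integrated stress response, stood at 188 and 120, 1.57-fold higher (1.31 to 1.89), and Maf at 183 and 368, 2.01-fold lower (1.75 to 2.31). Of the kinases and serum response factors upstream of AP-1, 0 of 15 were higher (all genes: 20.8%) and 0 lower (all genes: 11.8%) in fibroblast-like cells. In neutrophil-like cells 2 of 9 were higher (all genes: 11.2%) and 2 lower (all genes: 35.3%). In macrophage-like cells 2 of 15 were higher (all genes: 8.06%) and 2 lower (all genes: 14.4%). In dendritic-like cells 0 of 14 were higher (all genes: 7.41%) and 5 lower (all genes: 14.1%), with a median of -0.39 against -0.03 over all genes.

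Among genes known as AP-1 targets, more were higher than lower in WT over naive skin in 8 of 9 classes, dendritic-like cells being the exception. All genes leaned the same way in fibroblast-like, keratinocyte-like and lymphatic endothelial-like cells. In fibroblast-like cells 10 of 14 were higher (all genes: 20.8%) and 1 lower (all genes: 11.8%), with a median of 0.98 against 0.19. Timp1, an inhibitor of matrix proteases, stood at 898 in WT and 38.2 in naive cells, 23.5-fold higher (22.6 to 24.5), and Plau, the urokinase gene, at 43.5 and 94.2, 2.17-fold lower (2.06 to 2.28). In keratinocyte-like cells 5 of 10 were higher (all genes: 34.0%) and 2 lower (all genes: 16.5%). Ccnd1, cyclin D1, stood there at 214 and 22.9, 9.35-fold higher (5.19 to 18.8), and Mmp3 at 40.7 and 269, 6.61-fold lower (5.14 to 8.49).

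The immune classes with more Egr1 in treated skin were among these 8. In neutrophil-like cells 4 of 8 target genes were higher (all genes: 11.2%) and 2 lower (all genes: 35.3%): Hbegf, a ligand of the EGF receptor, stood at 297 and 12.5 CPM, 23.7-fold higher (15.1 to 39.2), and Ptgs2, the inducible cyclooxygenase, at 5147 and 1980, 2.60-fold higher (2.48 to 2.73). In lymphocyte-like cells 5 of 7 were higher (all genes: 11.1%) and 1 lower (all genes: 16.2%), with Areg, another EGF receptor ligand, at 1916 and 297, 6.46-fold higher (5.87 to 7.13). Areg also stood at 3375 in Cd226-/- cells, 1.76-fold above WT (1.69 to 1.84). In macrophage-like cells 8 of 15 were higher (all genes: 8.06%) and 1 lower (all genes: 14.4%), with Il6 at 30.1 and 2.00, 15-fold higher (9.75 to 23.4). In Langerhans or mature dendritic-like cells 0 of 16 target genes were higher (all genes: 2.13%) and 9 lower (all genes: 8.66%) in Cd226-/- than in WT skin. Fibroblast-like markers were also lower in these Cd226-/- cells, at 0.584% against 3.96% of their fibroblast-like level. The part of RNA from other cells in this count was not tested.

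Across 36 sums of a class in a library, the summed level of the 10 genes had a Pearson correlation of -0.07 (Spearman 0.03) with the heat shock list and of 0.50 (0.45) with the other immediate early genes. Single genes differed: with the heat shock list Jun had 0.51 (Spearman 0.37) and Fos 0.41 (0.26), whereas Fosl2 had -0.60 (-0.29) and Junb -0.55 (-0.25). The neutrophil-like sums had the lowest heat shock shares of the 36, 0.118% to 0.139% of UMIs. They also held the highest Fosl2 and Junb levels, so the Pearson values of these 2 genes lean on 1 class. With the other immediate early genes Junb had 0.92 (0.88). These points share libraries and classes and are no replicates, so the values are a description. Over the 30 class sums with at least 50 cells, Fos and Jun had 0.82, Fos and Fosb 0.80, Fosl2 and Junb 0.81, and Jun and Batf -0.69.

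From cell to cell within a class and library, the correlation between immediate early genes ranged from near 0 in some lymphocyte-like and monocyte-like cells to high values in fibroblast-like cells. The median Pearson correlation of Fos with Fosb was 0.51 (0.22 to 0.74, over 16 classes and libraries), with Jun 0.45 (0.13 to 0.76, over 18) and with Atf3 0.56 (0.05 to 0.71, over 16). The lowest values of the last 2 were in lymphocyte-like cells. For Fosb with Jun the median was 0.35 (-0.02 to 0.73). With the heat shock list Fos had 0.25 (0.01 to 0.51, over 19), Jun 0.39 (-0.04 to 0.52, over 18), Egr1 0.23 and Fosl2 0.01. The summed level of the 10 genes had 0.76 (0.54 to 0.89) with the other immediate early genes, 0.28 (-0.07 to 0.59) with the heat shock list and 0.00 with the UMI total of the cell. Cells of 1 library share its handling, and these values have no test.

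By Pearson correlation over the same 30 class sums and 11005 genes, the genes most like each member were as follows. Fos and Jun shared Klf4, a zinc finger factor of epithelial and early response programs, at 0.87 and 0.92. Junb stood nearest to Ccnl1 at 0.86 and Ppp1r15a, a stress phosphatase subunit, at 0.85, and Fosl2 to Nfkbia, the NF-kappaB inhibitor, at 0.89. Egr1 stood nearest to Sntb2 at 0.81, Zfp651 at 0.80 and Ier2, another immediate early gene, at 0.79. Batf stood nearest to Ikzf1 at 0.94, Limd2 at 0.93 and Pik3cd at 0.92, genes of lymphoid and myeloid cells. Fosb stood nearest to Fam160b1 at 0.90, Fosl1 to Npepps at 0.84 and Jund to Cast at 0.80. Atf3 stood nearest to Fam71a and Sowahc, both at 0.81, and Fam71a lies on the same strand 5479 bases past the 3′ end of Atf3 on chromosome 1, so reads that run past Atf3 cannot be told apart from its own.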

How the data were processed

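The deposited values are unnormalized UMI counts of each gene in each called cell. The submitters' processing notes name Cell Ranger 3.1.0 and the build mm10. Cells were kept from 500 genes and 1000 UMIs upward if mitochondrial UMIs made up 10% or less, and doublets called by Scrublet (scanpy 1.11.5, expected rate 0.06) were left out; in the naive CD45+ library the caller marked only 0.541%. Clustering (Leiden, resolution 1.0, 2000 variable genes without the members and listed genes, 30 components, 15 neighbours; Python 3.11.15) used no batch correction, and clusters were named "-like" by marker genes with thresholds set after the clusters had been seen. Counts were summed over the cells of a class. Levels have exact Poisson, ratios exact conditional binomial and shares exact Clopper-Pearson intervals at 95%, which cover counting error only. The scripts were tested on simulated data. The members, the 5 gene lists and the markers were chosen with earlier results of these data known. All 10 members are described; of a list the text names up to 2 genes with the highest and 2 with the lowest ratio (by the interval bound nearest to equality) per class and comparison. A gene that this rule would name is not reported here. TMM scaling, stricter cells, kept doublets, other clusterings, the richest cell left out, mean per-cell levels, cells low in heat shock genes, other minimum counts and a 2-fold threshold were tried as alternatives. Classes with fewer than 20 cells in a library and unnamed clusters were left out. Figures were drawn with matplotlib 3.10.9.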

Additional observations from a re-analysis of the deposited data

Results flagged for a closer look

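In several genes the ratio passed 1.5-fold in opposite directions in 2 classes. These differences between classes were not tested, since each rests on 1 library per group. For WT over naive skin Fosl2 was 1.76-fold higher in macrophage-like and 2.50-fold lower in keratinocyte-like cells. Jun was 1.71-fold higher in neutrophil-like and 3.04-fold lower in keratinocyte-like cells, and Junb 1.86-fold higher and 3.6-fold lower in the same classes. Atf3 was 1.85-fold higher in lymphocyte-like and 4.61-fold lower in keratinocyte-like cells, but the lymphocyte-like Atf3 ratio was 0.924 with libraries clustered apart. Egr1 was 9.08-fold higher in lymphocyte-like and 3.68-fold lower in keratinocyte-like cells, and over all classes higher in 4 and lower in 3. Since the immune and the other classes were set against different naive libraries, these 5 pairs also differ in their naive library. Batf is a pair within 1 naive library: 2.90-fold higher in lymphocyte-like and 4.28-fold lower in neutrophil-like cells. For Cd226-/- over WT skin Fosb was 1.78-fold higher in lymphocyte-like and 1.65-fold lower in macrophage-like cells (1.30-fold at the lowest of its alternatives), and Atf3 was 1.56-fold higher in endothelial-like and 1.87-fold lower in neutrophil-like cells.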

How the results depend on the processing

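Of 531 recomputations of the 65 ratios past 1.5-fold, 529 kept their direction and 497 were still past 1.5-fold. These recomputations reused the same libraries, and the 2 contrasts with naive skin share their naive library, so they are no replicate check. They leave out the other naive library, against which 5 of 12 ratios turned and 4 were still past 1.5-fold. For WT over naive skin 11 pairs of 79 were higher and 22 lower, over 9 classes. With libraries clustered apart it was 7 and 14 of 52, over 6 classes (all genes: 15.83% and 15.42%). Neutrophil-like, endothelial-like and dendritic-like cells had no ratio there. With stricter cells it was 12 and 14 of 55, over 6 classes, without keratinocyte-like, lymphatic endothelial-like and dendritic-like cells. Since classes dropped out, neither count shows a fall within the same classes. At 2-fold 6 and 14 of 79 remained (all genes: 6.701% and 6.599%). For Cd226-/- over WT skin 2 pairs of 72 were higher and 5 lower, over 8 classes. The higher pairs became 1 of 55 with stricter cells, 1 of 63 with doublets kept and 0 of 72 at 2-fold (all genes: 5.22%, 5.59% and 1.52%). They became 5 of 72 with mean per-cell levels and 6 of 54 with cells low in heat shock genes (all genes for the latter: 5.67%). The lower pairs became 2 of 54 with libraries clustered apart (all genes: 6.27%) and 1 of 72 at 2-fold (all genes: 2.14%). Clustered apart, neutrophil-like cells had no ratio, so their 2 lower pairs were not measured there. Genotype ratios that left the 1.5-fold range were Atf3 in endothelial-like cells, Fosb in macrophage-like (lowest 1.30), Egr1 in monocyte-like (1.33) and Jun in neutrophil-like cells (1.44). Egr1 for WT over naive skin ran from 4.24 to 11.4 in lymphocyte-like and from 5.16 to 7.34 in neutrophil-like cells. With libraries clustered apart the Atf3 ratio in lymphocyte-like cells turned to 0.924 for WT and 0.99 for Cd226-/- over naive skin. Chosen after seeing the data were the other naive library and ratios within clusters. Against the other naive library fibroblast-like cells turned to 1.66 for Fosb and 1.08 for Atf3 in WT and to 1.03 for Fos, 1.18 for Fosb and 1.20 for Egr1 in Cd226-/- skin, and in cluster 5 Atf3 turned to 1.41 in WT and 1.26 in Cd226-/- skin. TMM subtracted 0.24 from each log2 ratio in fibroblast-like and -0.11 in endothelial-like and lymphocyte-like cells (WT over naive), and -0.16 in neutrophil-like cells (Cd226-/- over WT). No paired analysis was possible because each group is 1 library, and for the same reason no replicate could be left out. The causes of these moves were not tested. Low counts limit Batf and Fosl1, and fewer than 100 cells limit the small classes.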

Other observations

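Small classes without a ratio are given as levels. The 40 mast or basophil-like cells of Cd226-/- treated skin held the highest Fos, Jun and Egr1 levels of that library, at 8924, 6049 and 5942 CPM, with Fosb at 1866, Atf3 at 236 and Batf at 64.4. Melanocyte-like cells, the pigment cells, were few: 93 WT, 23 Cd226-/- and 26 naive CD45- cells. Their Fos level was 1223, 3910 and 3262, their Jun level 1302, 3186 and 2400 and their Egr1 level 632, 2352 and 2429 CPM, so that WT cells were the lowest of the 3. Lymphocyte-like cluster 24, with 58 WT and 120 Cd226-/- cells, held 5712 and 6492 CPM for Fos, above the 1642 and 2182 of all lymphocyte-like cells.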
